A study of Mus musculus with 4 samples.

Results

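Gata6, Sox7, Dab2, Amn and Hnf4a are regulators and markers of primitive endoderm. They were found by symbol in the probe annotation of the array, which held 8 probes for these 5 genes among 25697 probes and 16593 genes with a symbol. Expression was measured on Illumina bead arrays in OG2 cells, a mouse embryonic stem (ES) cell line with a green fluorescent protein transgene driven by Pou5f1 (Oct4) sequences. All cultures had been kept on gelatin, without feeder cells, in KSR medium with 1 µM PD0325901 (a MEK inhibitor that keeps ERK inactive), 3 µM CHIR99021 (a GSK3 inhibitor) and 1000 U/ml leukaemia inhibitory factor (LIF, which signals through JAK kinases to STAT3). For the last 12 h they were switched to 1 of 4 media. These were FGF2 (10 ng/ml) plus JAK inhibitor I (1 µM), FGF2 at the same dose plus LIF, PD0325901 plus JAK inhibitor I at the same dose, and PD0325901 plus LIF. The labels name CHIR99021 in none of these 4 media. Each medium was measured on 1 array, so no value has a replicate, and all 4 arrays come from 1 line. FGF2 takes the place of PD0325901 and the JAK inhibitor the place of LIF, so adding 1 agent and withdrawing the other cannot be told apart.

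Primitive endoderm is the layer that forms on the surface of the inner cell mass next to the blastocyst cavity and gives rise to parietal and visceral endoderm. FGF signalling through ERK is known to favour it over the epiblast, from which ES cells derive, and the factor GATA6 acts early in this choice, opposed by NANOG. SOX7 follows later, DAB2 is an endocytic adaptor needed to position the layer, AMN anchors the cubilin receptor at the membrane of visceral endoderm, and HNF4A switches on the secretory genes of visceral endoderm.

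Known target genes of both pathways differed between the media. Egr1, an immediate early gene of ERK signalling, stood at normalized log2 intensities of 8.75 in FGF2 plus JAK inhibitor and 8.60 in FGF2 plus LIF, against 4.57 in PD0325901 plus JAK inhibitor (not detected) and 5.24 in PD0325901 plus LIF. Socs3, the feedback inhibitor of JAK signalling, stood at 5.79 and 5.49 with the JAK inhibitor (beside FGF2 and beside PD0325901), against 10.05 and 9.90 with LIF in the same order. Dusp6, an ERK phosphatase and ERK target, stood at 11.05 and 11.02 with FGF2 (beside the JAK inhibitor and LIF), against 9.62 and 9.44 with PD0325901. Egr1 and Dusp6 rose with FGF2 (limma adjusted p = 0.000787 and 0.0116), while Spry4, an inhibitor induced by ERK, had a mean FGF2 difference of 1.38 (0.108). Socs3 and Bcl3, both STAT3 targets, fell with the JAK inhibitor, with mean log2 differences of −4.34 (limma adjusted p = 2.43e-05) and −3.28 (0.000106). Bcl3 was detected with LIF only, so its value is a difference from undetected levels. Between 10626 and 10927 probes per array were detected, at a detection p-value below 0.01 against negative control beads, and the median standard error over the beads of a probe was 4.08% to 4.56% of the signal. The ES cell markers Pou5f1, Sox2, Nanog, Zfp42, Esrrb and Dppa5a were detected on all 4 arrays. Gata4, Sox17 and Pdgfra, which with the 5 genes make up a list of 8 primitive endoderm markers, were not detected on any array. Other genes linked to the layer but not particular to it, among them Hhex, Sall4, Fgfr1, Sparc and Col4a1, were detected on all 4 arrays. Whether the cultures held primitive endoderm cells was not tested. In a bulk culture, more cells with a transcript and more transcript per cell cannot be told apart.

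Gata6 had the largest mean FGF2 difference of the 5 genes. Its probe (ILMN_2868133) gave deposited signals of 139.0 ± 4.9 in FGF2 plus JAK inhibitor, 162.2 ± 6.6 in FGF2 plus LIF, 94.0 ± 3.7 in PD0325901 plus JAK inhibitor, and 114.6 ± 4.5 in PD0325901 plus LIF (intensity ± bead standard error). All 4 were detected, and both signals with FGF2 lay above both with PD0325901. These signals carry the overall brightness of each array, with medians of 92.8 and 88.4 with FGF2 (beside the JAK inhibitor and LIF), against 82.0 and 86.9 with PD0325901. After background correction and quantile normalization the log2 levels were 5.89, 6.55, 5.20 and 5.75 in the same order of media. Gata6 was therefore 1.74-fold higher with FGF2 than with PD0325901 beside LIF (log2 difference 0.80 ± 0.17, bead error) and 1.62-fold higher beside the JAK inhibitor (0.70 ± 0.19). These differences exceed the bead error, which covers the beads of 1 array and not the spread between cultures. With the JAK inhibitor Gata6 was 1.57-fold lower than with LIF beside FGF2 (−0.65 ± 0.14) and 1.46-fold lower beside PD0325901 (−0.55 ± 0.22). The FGF2 difference in the JAK inhibitor background minus that in the LIF background, the departure from additivity, was −0.10 ± 0.26, a value within bead error. The array with both switches, FGF2 and the JAK inhibitor, differed from PD0325901 with LIF by 0.15 ± 0.17 on the log2 scale. In the order of levels, those are the neighbours in the middle and they did not differ beyond bead error.

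**Figure D1:**
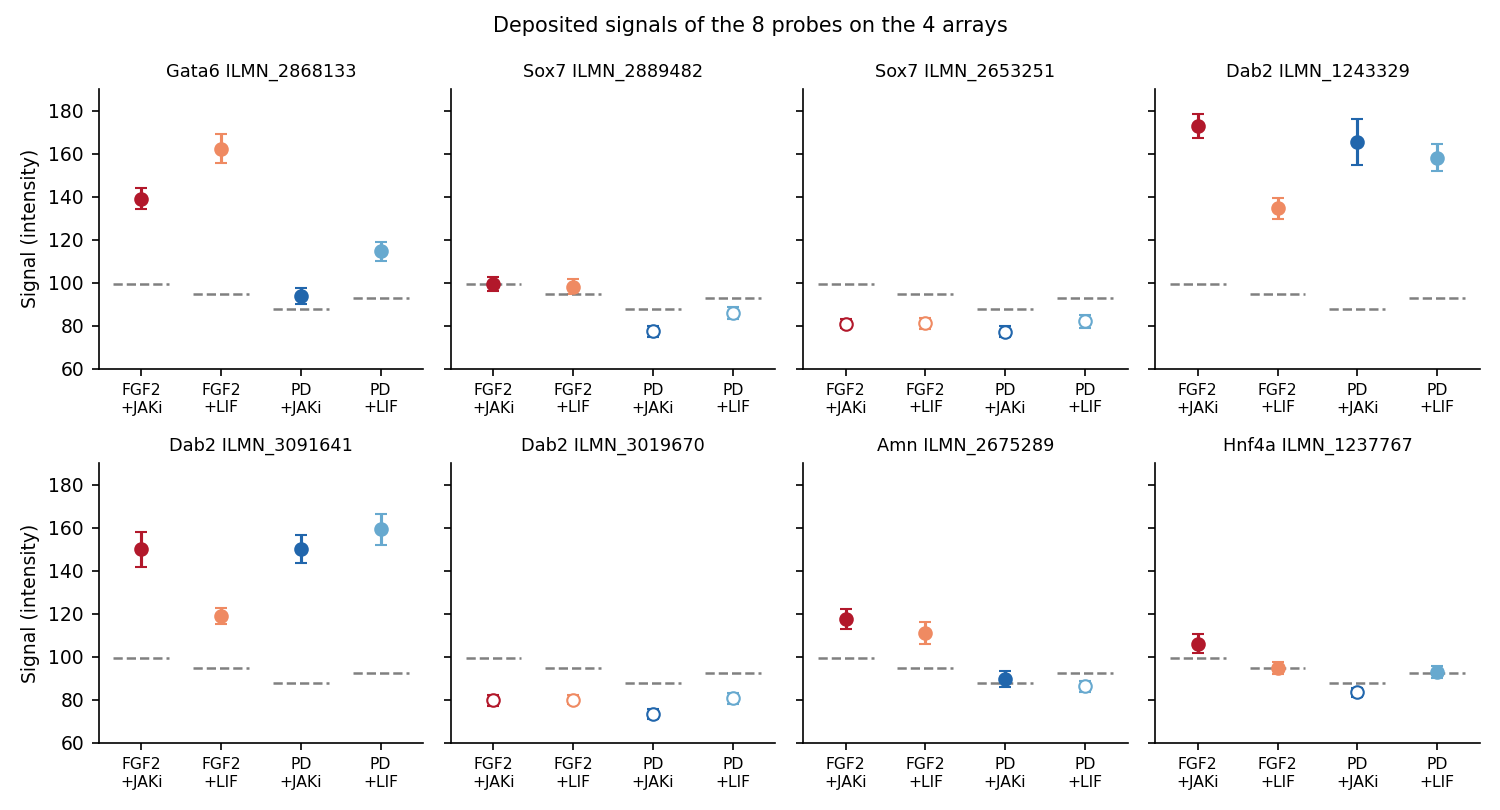
Deposited signal (intensity, linear axis starting at 60) of each of the 8 probes on the 4 arrays, with bars of 1 bead standard error, filled points where the probe was detected and open points where it was not. PD stands for PD0325901 and JAKi for JAK inhibitor I, and the dashed lines give the lowest signal of any detected probe on that array. Gata6 reached 162.2 in FGF2 plus LIF, while Sox7 and Hnf4a stayed near the lines.

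Sox7, an HMG box factor related to SOX17, was measured by 2 probes with different results. Probe ILMN_2889482 gave signals of 99.3 ± 3.3 in FGF2 plus JAK inhibitor and 98.1 ± 3.5 in FGF2 plus LIF, against 77.3 ± 2.6 in PD0325901 plus JAK inhibitor and 85.8 ± 2.9 in PD0325901 plus LIF. It was detected with FGF2 only, with detection p-values of 0.00877 and 0.00251, against 0.353 and 0.110 with PD0325901. Its FGF2 signals stood just at the detection limit. Beside LIF the bound was 1.09-fold higher with FGF2, which lay within bead error (log2 level 4.98 ± 0.15, against a limit of 4.85 in PD0325901 plus LIF). Beside the JAK inhibitor no bound above 1 could be given. The measured log2 differences were 0.51 ± 0.21 beside LIF and 0.49 ± 0.16 beside the JAK inhibitor. The second probe, ILMN_2653251, annotated to the same transcript, was not detected on any array, with signals between 77.2 and 82.0 and FGF2 differences of −0.06 ± 0.12 beside LIF and −0.11 ± 0.10 beside the JAK inhibitor. The FGF2 difference of Sox7 thus rests on 1 probe at the detection limit. With the JAK inhibitor the first probe differed from LIF by −0.18 ± 0.20 beside FGF2 and, with neither array detected, by −0.16 ± 0.17 beside PD0325901.

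Amn, the membrane partner of cubilin, was also higher with FGF2. Probe ILMN_2675289 gave 117.7 ± 4.7 in FGF2 plus JAK inhibitor and 111.0 ± 5.3 in FGF2 plus LIF, against 89.6 ± 3.6 in PD0325901 plus JAK inhibitor and 86.2 ± 2.5 in PD0325901 plus LIF, where it was not detected, with a detection p-value of 0.0940. As with Gata6, both FGF2 signals, which carry the brightness of their arrays, lay above both PD0325901 signals. Beside LIF Amn was at least 1.53-fold higher with FGF2 (measured log2 difference 0.98 ± 0.21), and beside the JAK inhibitor it was 1.35-fold higher (0.43 ± 0.24). The departure from additivity was −0.54 ± 0.31. The JAK inhibitor difference beside FGF2 was −0.06 ± 0.21, within bead error. Beside PD0325901 the measured difference was 0.49 ± 0.23, with a bound of 1.09-fold. That bound lay within bead error (log2 level 4.98 ± 0.20 with the inhibitor, against a limit of 4.85 in PD0325901 plus LIF). For Gata6 the JAK inhibitor differences were below 0 in both backgrounds. With both switches Amn was at least 1.47-fold higher than in PD0325901 plus LIF.

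Hnf4a, a nuclear receptor, stayed near the detection limit in every medium. Probe ILMN_1237767 gave 106.1 ± 4.3 in FGF2 plus JAK inhibitor and 94.9 ± 2.8 in FGF2 plus LIF, against 83.4 ± 2.2 in PD0325901 plus JAK inhibitor (not detected, with a detection p-value of 0.0476) and 92.8 ± 2.9 in PD0325901 plus LIF. Beside LIF the log2 difference between FGF2 and PD0325901 was −0.02 ± 0.20, and beside the JAK inhibitor Hnf4a was at least 1.14-fold higher with FGF2 (0.44 ± 0.19). All 4 levels spanned 1.35-fold. They were 5.05 in FGF2 plus JAK inhibitor, 4.86 in PD0325901 plus LIF, 4.84 in FGF2 plus LIF and 4.62 in PD0325901 plus JAK inhibitor, from the highest down. Neighbours among the first 3 differed by 0.19 ± 0.21 and, for FGF2 plus LIF against PD0325901 plus LIF, by the −0.02 ± 0.20 above, both within bead error, and the lowest level was not a detected one.

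Dab2 was lower with FGF2. Probe ILMN_1243329, the brightest of its probes, had normalized log2 levels of 6.44 in FGF2 plus JAK inhibitor and 6.06 in FGF2 plus LIF, against 6.89 in PD0325901 plus JAK inhibitor and 6.68 in PD0325901 plus LIF. Its deposited signals, which carry the overall brightness of each array, were 172.7 ± 5.7, 134.4 ± 5.0, 165.2 ± 10.6 and 158.1 ± 6.3 in the same order, so that the array of FGF2 with the JAK inhibitor was the brightest before normalization. Dab2 was 1.53-fold lower with FGF2 beside LIF (log2 −0.61 ± 0.15) and 1.36-fold lower beside the JAK inhibitor (−0.44 ± 0.17). The difference of this probe beside the JAK inhibitor was −0.15 with median scaling and −0.016 without normalization, where the mean over both backgrounds was −0.31 and −0.23 and the median FGF2 difference of all genes stood at 0.20 and 0.28. A second detected probe, ILMN_3091641, had log2 levels of 6.09 in FGF2 plus JAK inhibitor and 5.69 in FGF2 plus LIF, against 6.66 in PD0325901 plus JAK inhibitor and 6.70 in PD0325901 plus LIF. By this probe Dab2 was 2.01-fold lower with FGF2 beside LIF (−1.01 ± 0.15) and 1.48-fold lower beside the JAK inhibitor (−0.57 ± 0.17). Both probes were detected on all 4 arrays, and on both the normalized levels with FGF2 lay below those with PD0325901. With the JAK inhibitor Dab2 was higher than with LIF beside FGF2 on both probes (0.38 ± 0.13 and 0.40 ± 0.17), while beside PD0325901 the probes gave 0.21 ± 0.18 and −0.04 ± 0.15. The third probe, ILMN_3019670, was not detected on any array (signals of 73.4 to 80.7).

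**Figure D2:**
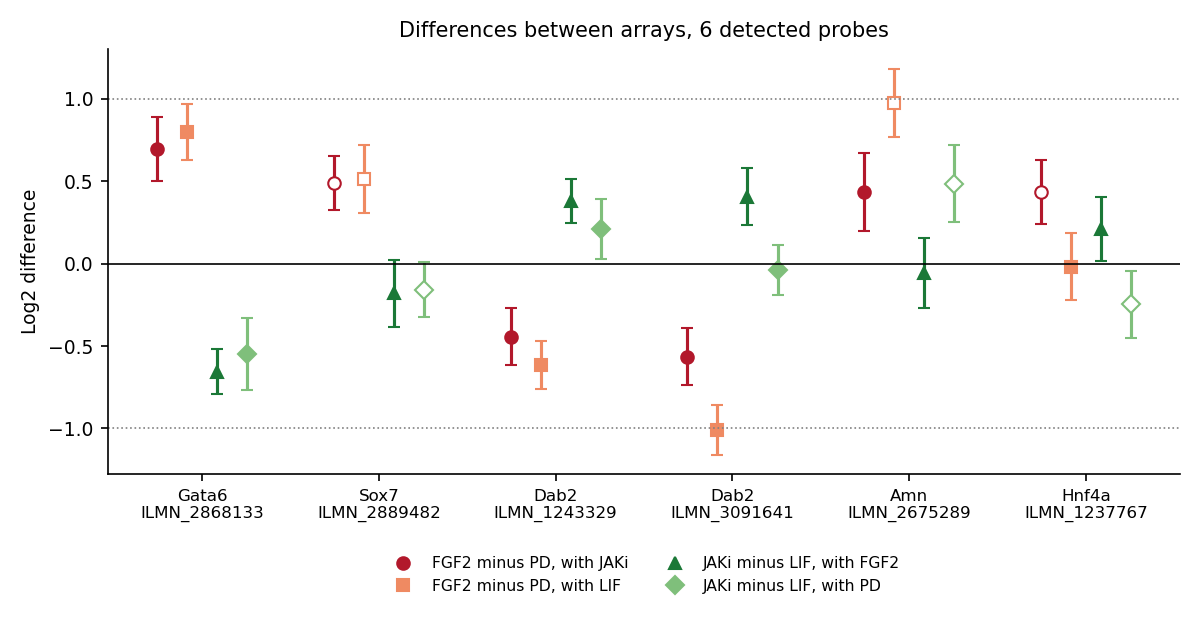
Log2 differences of normalized intensity between pairs of arrays for the 6 probes detected on at least 1 array, with bars of 1 bead error of the difference, open symbols where 1 or both arrays did not detect the probe, and dotted lines at 2-fold. PD stands for PD0325901 and JAKi for JAK inhibitor I. The FGF2 differences of Gata6 (0.70 and 0.80) lie above 0 and those of both Dab2 probes below it.

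An additive limma fit over 8341 genes assumed that the switches add. The error of a gene came from its departure from additivity (1 residual degree of freedom), moderated towards a prior from all genes (7.01 degrees of freedom). Each SE below thus rests mostly on other genes. In this fit 0 of the 5 genes passed an adjusted p of 0.05 for FGF2 against PD0325901, where 0.24% of genes did (0.204% higher and 0.036% lower). Those were 17 genes higher and 3 lower, against 424 and 20 without normalization between arrays. At unadjusted p below 0.05, 3 of the 5 were higher and 1 lower, beside 6.25% and 5.3% of all genes. The mean log2 difference over both backgrounds was 0.75 ± 0.15 (SE) for Gata6 (limma adjusted p = 0.152), which placed it at number 62 of 8341 genes by size of increase. It was 0.70 ± 0.18 for Amn (adjusted p = 0.240), 0.50 ± 0.15 for Sox7 (0.309), 0.21 ± 0.17 for Hnf4a (0.666) and −0.53 ± 0.16 for Dab2 (0.294), by limma with Benjamini-Hochberg adjustment. By direction alone, 3 of the 5 (Gata6, Sox7 and Amn) were higher with FGF2 in both backgrounds and 1 (Dab2) was lower, beside 28.9% and 30.6% of all genes. None was 2-fold higher in both (0.204% of genes) or 2-fold lower (0.036%). Gata6 alone was 1.5-fold higher in both, as were 0.755% of genes, and none of the 5 was 1.5-fold lower (0.516%). The median of the 5 genes was 0.50, beside −0.01 over all genes. Sox7, Amn and Hnf4a entered the fit through the arrays on which they were bright, so neither this median nor these counts say anything of the 5 as a group, for either switch. Gata6 passed the test under 6 of 10 other ways of processing and Amn under 2 of 9, with adjusted p between 0.000802 and 0.428 for Gata6 over all of them and between 0.00569 and 0.428 for Amn.

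For the JAK inhibitor against LIF, 0 of the 5 genes passed in limma, where 0.288% of genes did. These were 0 genes higher and 24 lower, against 28 and 66 with median scaling and 9 and 40 without normalization. At unadjusted p below 0.05, Gata6 was lower and none of the 5 was higher, beside 5.45% and 5.14% of genes. Its mean log2 difference was −0.60 ± 0.15 (limma adjusted p = 0.274). Dab2 stood at 0.30 (0.530), Amn at 0.21 (0.700), Sox7 at −0.17 (0.722) and Hnf4a at −0.02 (0.980). The median of the 5 was −0.02, beside 0.01 over all genes. In both backgrounds 2 of the 5 (Gata6 and Sox7) were lower with the JAK inhibitor and 1 (Dab2) was higher, beside 27.8% and 30.2% of genes. None was 1.5-fold lower in both (0.827%) or 1.5-fold higher (0.252%), and none was 2-fold lower (0.276%).

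In single pairs of arrays, none of the 5 was 2-fold different on the probe that stood for the gene. Of all genes, 0.683% were 2-fold higher and 0.551% lower with FGF2 beside LIF, and 0.276% and 0.12% beside the JAK inhibitor. With the JAK inhibitor 0.108% were 2-fold higher and 0.432% lower beside FGF2, and 0.18% and 0.647% beside PD0325901. Between FGF2 plus JAK inhibitor and PD0325901 plus LIF, 0.719% were higher and 1.04% lower. At 1.5-fold with FGF2 beside LIF, Gata6 and Amn were higher (5.61% of genes) and Dab2 lower (3.87%). At that level Gata6 was also higher with FGF2 beside the JAK inhibitor (2.46%, with 2.22% of genes lower and none of the 5) and lower with the JAK inhibitor beside FGF2 (2.84%, with 1.83% of genes higher and none of the 5). Between FGF2 plus JAK inhibitor and PD0325901 plus LIF, Amn was 1.89-fold higher as measured, but its bound against the undetected array was 1.47-fold and so short of that level (5.67% of genes were measured as higher and 4.71% as lower, with none of the 5 lower). For the JAK inhibitor beside PD0325901 none of the 5 was past 1.5-fold (4.88% of genes higher and 4.54% lower).

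Markers of fibroblasts were examined because such cells can also express Dab2. Of 8 such markers 5 were detected, and their summed normalized intensity was 2175 in FGF2 plus JAK inhibitor and 2346 in FGF2 plus LIF, against 3202 in PD0325901 plus JAK inhibitor and 3635 in PD0325901 plus LIF. Most of each sum came from 1 gene, Acta2 (log2 10.89, 11.02, 11.51 and 11.49 in the same order), so the sums do not describe the list. Of the 5, 0 passed the limma test for either switch, and 4 were lower with FGF2 in both backgrounds, beside 30.6% of all genes. Lum entered the list only through the arrays with PD0325901, on which it was bright. This count thus says nothing of the list as a group. Col1a2, Col3a1 and Postn were not detected on any array, while the proteoglycan gene Dcn was highest in PD0325901 plus LIF (log2 8.86, against 6.45 to 6.70 elsewhere). Lum, another proteoglycan gene, was detected with PD0325901 only, at log2 levels of 4.66 and 4.56 with FGF2 (beside the JAK inhibitor and LIF), against 5.35 and 6.51 with PD0325901 (mean difference −1.32, limma adjusted p = 0.149). Acta2, the actin gene of smooth muscle and myofibroblasts, had a mean FGF2 difference of −0.55 (limma adjusted p = 0.276). Beside the JAK inhibitor, where Dab2 differed by −0.44, the FGF2 difference was −0.70 for Lum, −0.62 for Acta2, −0.05 for Dcn, −0.03 for Thy1 and 0.14 for Col1a1. The part of such cells in the Dab2 values was not tested.

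The RefSeq promoter table (GRCm38.p6) held upstream sequence for Amn, Dab2 and Hnf4a. It had no entry for Sox7, and the sequence of Gata6 is not reported here. The 3 genes are shown since Gata6 encodes a GATA factor and the JAK pathway acts through STAT3, and since Amn and Dab2 differed in direction. The letters AGATAA or TGATAA on either strand (a GATA motif) and TTCNNNGAA (a STAT motif, the same on both strands) were searched in the 250 bases before each start, and matches are in capitals. The matches found did not overlap.
Amn, chr12:111270846-111271095, + strand: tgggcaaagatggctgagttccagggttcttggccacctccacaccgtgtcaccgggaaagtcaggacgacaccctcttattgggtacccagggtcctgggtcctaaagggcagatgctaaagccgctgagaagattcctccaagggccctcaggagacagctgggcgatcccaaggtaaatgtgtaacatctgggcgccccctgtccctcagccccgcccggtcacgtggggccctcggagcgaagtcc
Dab2, chr15:6299539-6299788, + strand: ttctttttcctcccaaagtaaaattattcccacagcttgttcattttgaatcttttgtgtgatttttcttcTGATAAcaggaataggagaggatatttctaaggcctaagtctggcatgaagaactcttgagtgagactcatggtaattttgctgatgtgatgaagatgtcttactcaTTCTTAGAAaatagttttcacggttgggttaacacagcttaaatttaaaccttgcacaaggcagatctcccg
Hnf4a, chr2:163506607-163506856, + strand: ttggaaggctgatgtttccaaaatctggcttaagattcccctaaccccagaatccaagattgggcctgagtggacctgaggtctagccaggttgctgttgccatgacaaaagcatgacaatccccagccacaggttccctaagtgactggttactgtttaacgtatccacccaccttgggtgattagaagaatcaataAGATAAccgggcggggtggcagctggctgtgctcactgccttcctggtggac

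Dab2, lower with FGF2, had 1 GATA match beginning 179 bases and 1 STAT match beginning 72 bases before this start, Hnf4a had 1 GATA match beginning 52 bases before it, and Amn, higher with FGF2, had none of either. The second start listed for Dab2 and for Hnf4a had no match in its 250 bases. Of 32851 promoters of this length, 16.6% held the GATA letters and 7.02% the STAT letters, and which start these cells used was not measured. The matches are a description of these windows.

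Other genes linked to the layer were detected in numbers that differed by list. Some entered only through arrays on which they were bright, such as Apoc2 (FGF2 plus LIF) and Apom (both media with LIF). The list medians below thus say nothing of a list as a group. Of 10 early factors and receptors, 9 were on the array and 4 were detected, with 0 past the limma test for either switch and a median FGF2 difference of 0.04 (all genes −0.01). Gata4, Sox17, Pdgfra, Foxa2 and the receptor Fgfr2 were not detected on any array on any probe, and the FGF receptor Fgfr1 stood at 0.13. Gata4, the GATA factor expressed beside Gata6 in the embryo, gave signals of 83.5 and 79.2 with FGF2 (beside the JAK inhibitor and LIF), against 79.0 and 90.0 with PD0325901.

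A list of 11 genes held the endocytic receptors that AMN and DAB2 work with, and adaptors and other proteins of endocytosis. Of these, 8 were on the array and 7 were detected. The detected ones were Lrpap1, Lgmn, Ap2a1, Ap2b1, Ap2m1, Ap2s1 and Numb, with no receptor gene among them. With 0 past the test for either switch, the median FGF2 difference was −0.02. The receptor Lrp2 (megalin) was not detected, Cubn had no probe in the annotation, and the receptor chaperone Lrpap1 stood at −0.38 (limma adjusted p = 0.429). Of 18 secreted visceral endoderm and HNF4A-linked genes, 15 were on the array and 5 were detected, with 0 past the test and a median of 0.27. Afp, Ttr and Rbp4, carriers made by visceral endoderm, were not detected. Trf, the iron carrier transferrin, was higher with FGF2 by 1.61 on the log2 scale beside LIF and by 0.69 beside the JAK inhibitor, a mean of 1.15 (limma adjusted p = 0.137), with signals of 139.8 and 188.6 with FGF2 (beside the JAK inhibitor and LIF), against 94.5 and 101.6 with PD0325901. Of these lists it alone was 1.5-fold or more higher with FGF2 whether LIF or the JAK inhibitor was present, and like Gata6 its highest level was that in FGF2 plus LIF.

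Of 15 parietal endoderm and basement membrane genes, all were on the array and 11 were detected. None passed the FGF2 test, with a median of 0.14, and 1 fell with the JAK inhibitor, the laminin chain gene Lama1 (mean log2 difference −1.99, limma adjusted p = 0.0146). Lama1 stood at 5.90 in FGF2 plus JAK inhibitor and 8.34 in FGF2 plus LIF, beside 5.79 and 7.33 with PD0325901 in the same order. Its FGF2 difference was 1.01 beside LIF and 0.10 beside the JAK inhibitor. The basement membrane gene Nid2 had the highest JAK inhibitor difference of the list (0.61, adjusted p = 0.345), and Sparc, abundant in parietal endoderm, an FGF2 difference of −0.09. On the epiblast side, 0 of 7 genes passed either test, and the median FGF2 difference was −0.20. Nanog, which opposes Gata6, was at −0.59 for FGF2 (adjusted p = 0.243) and −0.40 for the JAK inhibitor (0.415). For FGF2 it was thus lower where Gata6 was higher, and for the JAK inhibitor both were lower, none past the test.

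**Figure D3:**
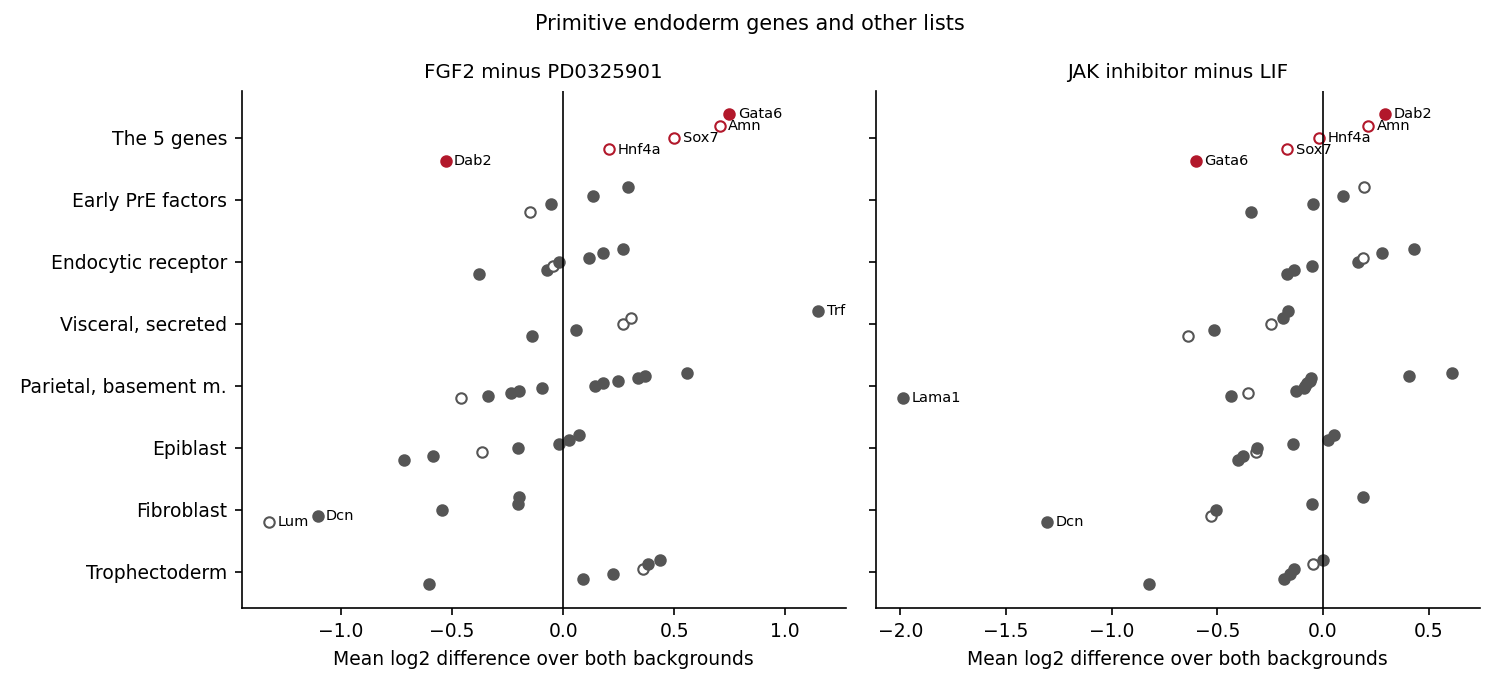
Mean log2 difference over both backgrounds for FGF2 minus PD0325901 (left) and JAK inhibitor minus LIF (right), with 1 point for each detected gene of the 8 lists drawn, which leave out the ES cell markers and the treatment target genes, filled where the gene was detected on all 4 arrays. The 5 genes are in red, and beside them genes of 1 or more on the log2 scale are named. Gata6 (0.75 and −0.60) and Dab2 (−0.53 and 0.30) lie on opposite sides in both panels, and Lama1 (−1.99) is the gene farthest from 0 among those drawn.

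Over the 4 arrays the 5 genes did not share 1 profile. As the Euclidean distance between log2 profiles centred on their means, Gata6 lay nearest to Sox7 (0.50) and farthest from Dab2 (1.57), and Sox7 lay at 0.51 from Amn and 0.41 from Hnf4a. Genes of much closer profile existed for each. Nearest to Gata6 were Atg9b (0.05), Klf5 (0.13), a factor of naive pluripotency, and Soga3 (0.14), where the median over all genes was 1.02. Atg9b was detected on 3 arrays and Soga3 on 2, so part of their profiles is undetected levels. Nearest to Sox7 were Trip10, Chrna9 and Kdm6b (0.06 to 0.07), nearest to Dab2 were Fam3a, Nod1 and Fkbp2 (0.06 to 0.07), and nearest to Amn were Maco1, Thada and Dact2 (0.10 to 0.13). For Hnf4a, which spanned less than 1.5-fold, none was named. With 4 points per profile and 8341 genes, such likeness is a description of these arrays.

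The authors' deposited table held values of its own for the 5 genes. For Gata6 it held intensities of 44 in FGF2 plus JAK inhibitor and 79 in FGF2 plus LIF, against 21 in PD0325901 plus JAK inhibitor and 39 in PD0325901 plus LIF. For Dab2 it held 72 and 52 with FGF2, against 104 and 87 with PD0325901, on the first probe, in the same order of media. Sox7 had 11 and 15 with FGF2 and no value with PD0325901, and Amn had 27 and 29 with FGF2, against 15 and no value with PD0325901. Hnf4a had 17 and 12, against 8 and 13. The order of the media was that of the normalized levels for each of the 5 genes, where values were held. On each array that table ranked the probes almost as the signals did (Spearman correlation 0.9999), with the same median on each array. The shared order is thus no separate evidence. The making of that table was not given in the sources used here.

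**Figure D4:**
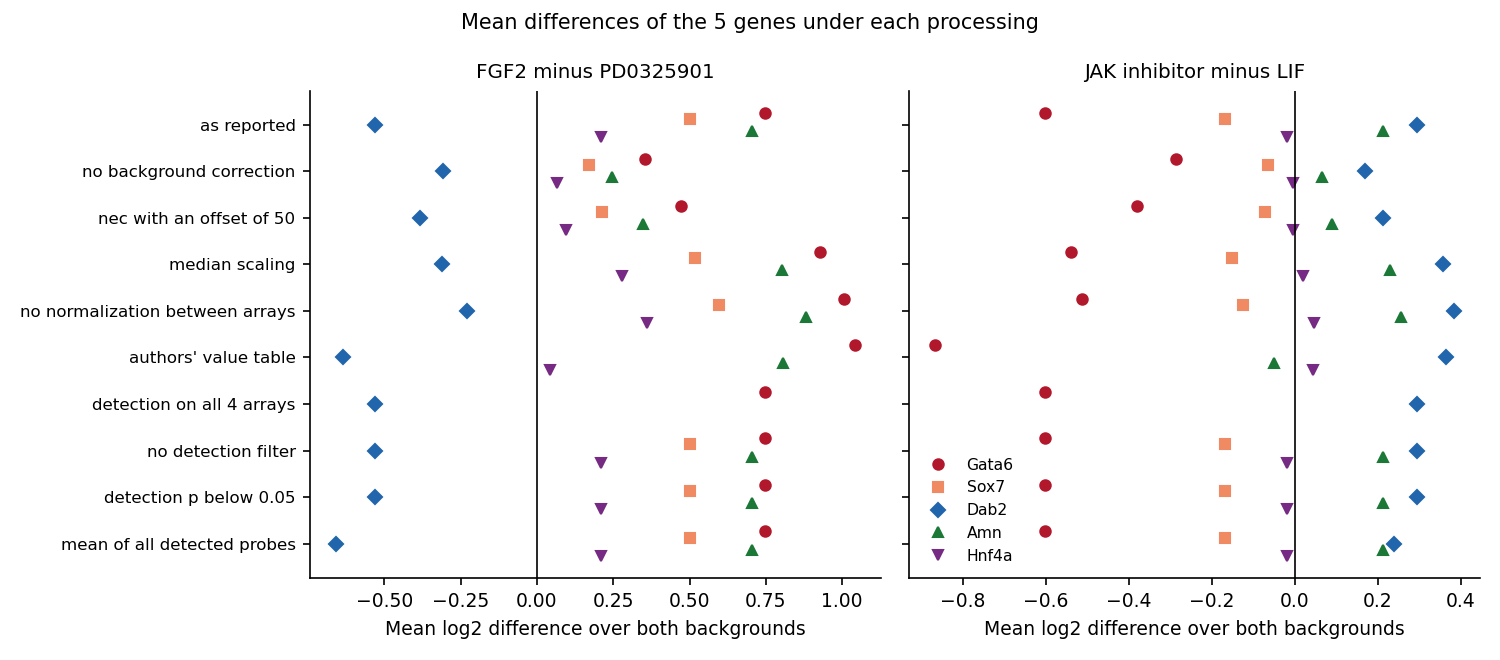
Mean log2 difference of each of the 5 genes for FGF2 minus PD0325901 (left) and JAK inhibitor minus LIF (right) under each way of processing except the intensity trend in eBayes, which leaves these values as reported, 1 row each, with a gene left out of a row where it was not analysed. Gata6, Amn, Sox7 and Hnf4a stay above 0 and Dab2 below 0 in the left panel, with Gata6 between 0.36 and 1.04. In the right panel Gata6 stays below 0 and Dab2 above 0, while Amn and Hnf4a cross it.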

How the data were processed

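Total RNA (400 ng) was amplified and labelled over 12 h, per the labels' protocols, and BeadStudio was used, per the submitters' processing notes. Neither its version nor its background and scaling settings were given in the sources used here. The deposited table of an array holds, per the file headers, a signal in intensity, its bead standard error and a detection p-value. Lowest signals of 64.4 to 71.2 and unequal medians were read as no background subtraction and no normalization. The authors' deposited value table holds whole-number intensities for 13029 to 13040 of 25697 probes, with a median of 71 on each array.

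Signals were background-corrected (limma 3.58.1 nec, offset 16, R 4.3.3), converted to log2 and quantile-normalized. A probe was analysed where its detection p fell below 0.01 on 1 array or more, and the detected probe with the highest mean stood for its gene (8341 genes). Symbols came from the platform annotation, checked against RefSeq (GRCm38.p6). A bound divides a detected level by the undetected array's detection limit or value, whichever is higher, and leaves out bead error. The bead error is the change in the normalized value when a signal moves by 1 bead standard error. Both switches entered an additive fit (lmFit, eBayes, Benjamini-Hochberg over all genes). The fit was run on simulated data in which the switches added and the errors followed its own prior. That run checks the computation only and cannot show whether the switches add in these cells. The rule for named genes took every probe of the 5 genes, the 3 nearest profiles, genes of the other endoderm lists past the test or 1.5-fold or more in 1 direction under both backgrounds, and genes set by name, such as the treatment targets. Other genes, those of the fibroblast and trophectoderm lists included, are named for context, chosen after their values were seen. The 5 genes, the lists and the rule were chosen with earlier results of these data known. The number of arrays limits the precision. The p-values rest on departures from additivity, moderated over all genes, and do not measure the spread between cultures or replicate arrays.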

Additional observations from a re-analysis of the deposited data

Results flagged for a closer look

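The differences of 2 genes had opposite signs in the 2 backgrounds of a switch, each background being 1 pair of arrays, and none of these contrasts between backgrounds was tested. Amn differed between the JAK inhibitor and LIF by −0.058 on the log2 scale beside FGF2 and by 0.49 beside PD0325901, where LIF left it undetected. Hnf4a differed between FGF2 and PD0325901 by −0.019 ± 0.20 (bead error) beside LIF and by 0.44 ± 0.19 beside the JAK inhibitor. Between the JAK inhibitor and LIF it differed by 0.21 ± 0.19 beside FGF2 and by −0.25 ± 0.20 beside PD0325901. PD0325901 plus JAK inhibitor, which enters the 0.44 and the −0.25, left Hnf4a undetected. The bounds were 1.14-fold for the 0.44 and 1.00-fold for the −0.25. The departure from additivity was −0.54 ± 0.31 (bead error) for Amn and 0.46 ± 0.28 for Hnf4a.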

How the results depend on the processing

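The mean FGF2 differences over both backgrounds kept their direction for each of the 5 genes in every alternative that gave a value, as did the mean JAK inhibitor differences of Gata6, Dab2 and Sox7. With the authors' table floored at 16, the FGF2 value of Hnf4a (0.044) came from 1 intensity above the floor. Differences in 1 background that turned are given at the end. No paired analysis was possible because each condition had 1 array, and for the same reason no array could be left out. Calls in limma depended strongly on the processing. For FGF2 the 20 genes called (17 higher, 3 lower) became 400 without background correction (236 higher, 164 lower), 320 with an offset of 50, 438 with median scaling (400 higher, 38 lower), 444 without normalization, 0 with the authors' table floored at 16 (949 at unadjusted p below 0.05), 60 with detection on all 4 arrays, 0 without a detection filter (1588), 66 at a detection p of 0.05 and 360 with an intensity trend in eBayes. For the JAK inhibitor the 24 called became 346, 272, 94, 49, 0 (954), 47, 8, 45 and 296 in the same order. The prior had infinite degrees of freedom under the first 4 and the last of these, against 7.01 as reported. The 0 of 5 genes called for FGF2 became 1 (Gata6) without background correction, with the offset of 50, with detection on all 4 arrays and with the trend, and 2 (Gata6 and Amn) with median scaling and without normalization, where the median of all genes stood at 0.20 and 0.28 and Gata6 at 0.73 above it in both.

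Genes at least 2-fold different numbered 103 and 33 for FGF2 beside LIF and beside the JAK inhibitor, 45 and 69 for the JAK inhibitor beside FGF2 and beside PD0325901, and 147 for both switches. In that order they were 26, 9, 19, 15 and 39 without background correction, 38, 14, 23, 24 and 53 with the offset of 50, 228, 99, 111, 186 and 278 with the authors' table, and 791, 390, 390, 786 and 866 at 1.5-fold. Beside the JAK inhibitor and for both switches they were 71 and 246 with median scaling and 155 and 354 without normalization, and 42 for the JAK inhibitor beside PD0325901 with detection on all 4 arrays. Of the 5 genes, 0 were 2-fold different as reported. For FGF2 beside LIF this became 1 with median scaling, without normalization and with the authors' table, and 3 at 1.5-fold. For FGF2 beside the JAK inhibitor it became 1 without normalization, with the authors' table and at 1.5-fold, for the JAK inhibitor beside FGF2 1 at 1.5-fold, and for both switches 1 with median scaling, without normalization and at 1.5-fold. These are measured values, not bounds.

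Signs turned for small values with median scaling and without normalization: the mean JAK inhibitor difference of Hnf4a was 0.019 and 0.045, its FGF2 difference beside LIF 0.028 and 0.056, the JAK inhibitor difference of Amn beside FGF2 0.030 and 0.11, and the difference of Dab2 for both switches 0.047 and 0.15. With the authors' table floored at 16, the mean JAK inhibitor difference was −0.052 for Amn and 0.044 for Hnf4a. For Amn the PD0325901 entries, 15 with the JAK inhibitor and none with LIF, were both set to the floor. Its value thus came from the pair beside FGF2 (−0.103). For Hnf4a only the 17 in FGF2 plus JAK inhibitor lay above the floor, so its value came from that intensity. The cause of the turns with median scaling and without normalization was not tested. Signals close to the detection limit bound what Sox7, Amn and Hnf4a can show.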

Other observations

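Trophectoderm is the other lineage of the blastocyst that ES cells do not normally enter. Of 8 of its markers 6 were detected, with Cdx2 and Elf5 not detected on any array, and 0 passed the limma test for either switch. The keratin genes Krt18 and Krt8 had mean FGF2 differences of 0.44 (limma adjusted p = 0.380) and 0.38 (0.428) on the log2 scale, while Tfap2c, a transcription factor of trophectoderm and germ cells, had −0.61 (0.240) for FGF2 and −0.82 (0.139) for the JAK inhibitor. The median of the list was 0.29 for FGF2, beside −0.01 over all genes. Eomes entered this list through FGF2 plus LIF, the only array that detected it, so the median says nothing of the list as a group.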
